A study of Mus with 16 samples.

Results

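The genes described here are 10 genes of the synapse and of mature neurons, *Snap25*, *Syn1*, *Syp*, *Syt1*, *Stx1a*, *Vamp2*, *Slc17a7*, *Slc17a6*, *Dlg4*, and *Rbfox3*. They were chosen by name, and their rows in the count table were found by Ensembl identifier. All 10 were present and passed the filter on low counts, which left 17866 genes to test of 35337 with a count in at least 1 animal and 54219 listed. The counts come from bulk poly(A) mRNA-seq of mouse forebrains, cortex and hippocampus together, at postnatal day 6 (P6). KDM5C is a histone demethylase encoded on the X chromosome, and the study asked how its loss changes the transcriptome in each sex. The groups were 4 wild-type (WT) males, 4 hemizygous *Kdm5c*-knockout (*Kdm5c*-KO) males, 4 WT females, and 4 heterozygous (*Kdm5c*-HET) females, with no drug or other treatment named in any group. The mutant allele lacks a pair of exons that were removed by Cre recombinase, and the mice were a mix of the C57BL/6J and 129S1/SvImJ strains, a background that WT and mutant animals shared. The animals came from 3 litters, and the sample labels do not say which animal came from which.

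A nerve terminal stores transmitter in small vesicles and releases it when a vesicle fuses with the plasma membrane. Fusion is driven by SNARE proteins, one set on the vesicle and one on the target membrane, and a calcium sensor on the vesicle times it. Glutamate is loaded into the vesicles by transporters, and it is sensed across the cleft by receptors held in the postsynaptic density. In the rodent forebrain these proteins build up during the first postnatal weeks, when most cortical synapses form, and VGLUT1 takes over from VGLUT2 in many cortical neurons over the same weeks.

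The total count per animal ranged in males from 21513783 to 29621023 for WT and from 24434549 to 27833185 for *Kdm5c*-KO, and in females from 22938813 to 30063352 for WT and from 23539248 to 25362347 for *Kdm5c*-HET. Each animal's code ends in D or E, a letter with no explanation in the sources used here. Among males, 1 WT and 2 *Kdm5c*-KO animals had the letter E, and among females 2 WT and 3 *Kdm5c*-HET animals had it. The letter D and letter E animals stood apart in most of the 10 genes, so the results for the 10 genes are given with the letter in view. *Kdm5c* itself was not paired with an identifier in the tables at hand, and its expression was not analysed here. The comparisons use CPM, counts scaled to a common library size and normalized by the TMM method, and fold changes on the log2 scale (Log2FC). A gene was called changed at an adjusted p-value (q) under 0.1. In bulk tissue, fewer cells of a type and less RNA per cell cannot be told apart.

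*Snap25* (ENSMUSG00000027273) and *Stx1a* (ENSMUSG00000007207) encode the SNARE proteins of the target membrane, SNAP-25 and syntaxin-1A, and *Vamp2* (ENSMUSG00000020894) encodes synaptobrevin-2, the SNARE of the vesicle. *Syt1* (ENSMUSG00000035864) encodes synaptotagmin-1, the calcium sensor. *Syp* (ENSMUSG00000031144) encodes synaptophysin, an abundant protein of the vesicle membrane, and *Syn1* (ENSMUSG00000037217) encodes synapsin-1, which tethers vesicles to each other. *Slc17a7* (ENSMUSG00000070570) and *Slc17a6* (ENSMUSG00000030500) encode the vesicular glutamate transporters VGLUT1 and VGLUT2. *Dlg4* (ENSMUSG00000020886) encodes PSD-95, the main scaffold of the postsynaptic density, and *Rbfox3* (ENSMUSG00000025576) encodes NeuN, an RNA-binding protein used as a marker of mature neurons. *Syn1* and *Syp* are on the X chromosome, and the other 8 genes are autosomal.

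RefSeq on GRCm38.p6 (mm10) places *Stx1a* at chr5:135023482-135051100, *Vamp2* at chr11:69088528-69092381, *Dlg4* at chr11:70017203-70045535, and *Syp* at chrX:7638580-7653256, with no other RefSeq gene overlapping any of them. *Rbfox3* lies at chr11:118489760-118911597 and overlaps *Gm11750*. *Slc17a7* lies at chr7:45163921-45176139 and holds a microRNA gene, and *Slc17a6* lies at chr7:51621830-51671126 and overlaps *Gm33136*. *Snap25* at chr2:136713439-136782428 overlaps *Gm32659*, *Syt1* at chr10:108497650-109010980 overlaps *Gm36601* and *Gm5136*, and *Syn1* at chrX:20860511-20920918 overlaps *Araf*, *Timp1*, and a microRNA gene. The strand setting of the counting is not given in the sources used here, so for those 6 genes reads of an overlapping gene may be missing or included.

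The first question was whether these genes differ between *Kdm5c*-KO and WT males. Of the 10 genes, 9 had a negative Log2FC and 2, *Stx1a* and *Rbfox3*, were called lower, while in the same comparison 5.24% of all genes tested were called in either direction and 1.69% were called lower. Among the 3108 genes with a mean of at least 81.2 CPM, the lowest mean among the 10, these shares were 4.92% and 2.96%. The median Log2FC of the 10 genes was -0.19, and that of all genes tested was -0.00724. Before adjustment, 6 of the 10 had p under 0.05, against 2939 of all 17866 genes. *Slc17a6* was the 1 gene with a positive Log2FC. The 9 negative values ran from -0.27 in *Slc17a7* to -0.08 in *Syt1*.

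*Stx1a* measured 312, 322, 305, and 286 CPM in WT males 2D, 5D, 7D, and 1E, and 276, 279, 247, and 241 CPM in *Kdm5c*-KO males 4D, 6D, 2E, and 3E. Every knockout male was below every WT male, and the lowest animal of each genotype carried the letter E. The mean was 306 ± 15.3 CPM (SD, n = 4) in WT and 261 ± 19.6 CPM (SD, n = 4) in *Kdm5c*-KO males. *Stx1a* thus fell by 14.8%, with a Log2FC of -0.23 (standard error 0.0492, q = 0.00971). It stayed called when each of the 16 animals was left out in turn, with q between 0.00478 and 0.0534.

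The other fusion genes of the set, *Vamp2*, *Snap25*, and *Syt1*, were not called in the fit without the letter. *Vamp2* measured 1015, 1015, 1043, and 896 CPM in WT males 2D, 5D, 7D, and 1E, and 962, 979, 795, and 754 CPM in *Kdm5c*-KO males 4D, 6D, 2E, and 3E. The groups overlapped because WT male 1E was below both knockout males of letter D, and the Log2FC was -0.19 (95% interval -0.35 to -0.02, q = 0.257). *Snap25* measured 567, 581, 583, and 499 CPM in WT males and 594, 583, 479, and 456 CPM in *Kdm5c*-KO males in the same order. Here the highest and the lowest animal were both knockouts, and the Log2FC was -0.08 (95% interval -0.25 to 0.10, q = 0.706). *Syt1* had the same arrangement, with knockout males at 1097 and 1116 CPM for letter D and at 927 and 874 CPM for letter E, around WT males at 957 to 1108 CPM. Its Log2FC was -0.08 (95% interval -0.23 to 0.08, q = 0.67).

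*Syn1* and *Syp*, the genes of synapsin-1 and synaptophysin, gave negative values without a call. *Syn1* measured 614, 629.5, 644, and 604 CPM in WT males 2D, 5D, 7D, and 1E, and 584, 585, 535, and 462 CPM in *Kdm5c*-KO males 4D, 6D, 2E, and 3E. Every knockout male was below every WT male, as for *Stx1a*, but the spread of the knockouts was wider, and the Log2FC of -0.20 (95% interval -0.35 to -0.06) had q = 0.135. Such a separation of *Kdm5c*-KO below WT males was seen in 2 of the 10 genes and in 3.87% of all genes tested. *Syp* measured 624, 626, 638, and 533 CPM in WT males and 587, 601, 470.5, and 464 CPM in *Kdm5c*-KO males in the same order. WT male 1E again lay below the letter D knockouts, and the Log2FC was -0.19 (95% interval -0.39 to 0.01, q = 0.341).

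The genes of the glutamate transporters gave values of opposite sign. *Slc17a7* measured 758, 748, 715, and 621 CPM in WT males 2D, 5D, 7D, and 1E, and 672, 684, 507, and 488 CPM in *Kdm5c*-KO males 4D, 6D, 2E, and 3E. Its Log2FC of -0.27 was the lowest of the 10, but its interval was also the widest (-0.52 to -0.03, q = 0.252). *Slc17a6* measured 76.8, 79.8, 84.6, and 73.4 CPM in WT males and 85.7, 91.7, 84.9, and 76.8 CPM in *Kdm5c*-KO males in the same order. Of the knockouts, 3 were above every WT male and the fourth, 3E, was not, and the Log2FC was 0.11 (95% interval -0.00363 to 0.22, q = 0.323).

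On the postsynaptic side, *Dlg4* measured 916, 902, 894, and 828 CPM in WT males 2D, 5D, 7D, and 1E, and 819.9, 850.2, 707, and 711 CPM in *Kdm5c*-KO males 4D, 6D, 2E, and 3E. Only knockout male 6D reached into the WT range, above WT male 1E. The Log2FC was -0.20 (95% interval -0.33 to -0.06, q = 0.11), and DESeq2 gave q = 0.0709 for the same comparison. *Rbfox3*, the neuron marker, measured 271, 275, 269, and 244 CPM in WT males and 242, 251, 216, and 224 CPM in *Kdm5c*-KO males in the same order. The overlap again came from WT male 1E and knockout male 6D. *Rbfox3* fell by 12%, with a Log2FC of -0.19 (standard error 0.0532, q = 0.0642). This call was lost without WT male 2D, 5D, or 7D and without *Kdm5c*-KO male 2E or 3E, when q reached up to 0.221, and in a fit of the 8 males alone (q = 0.147).

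**Figure D1:**
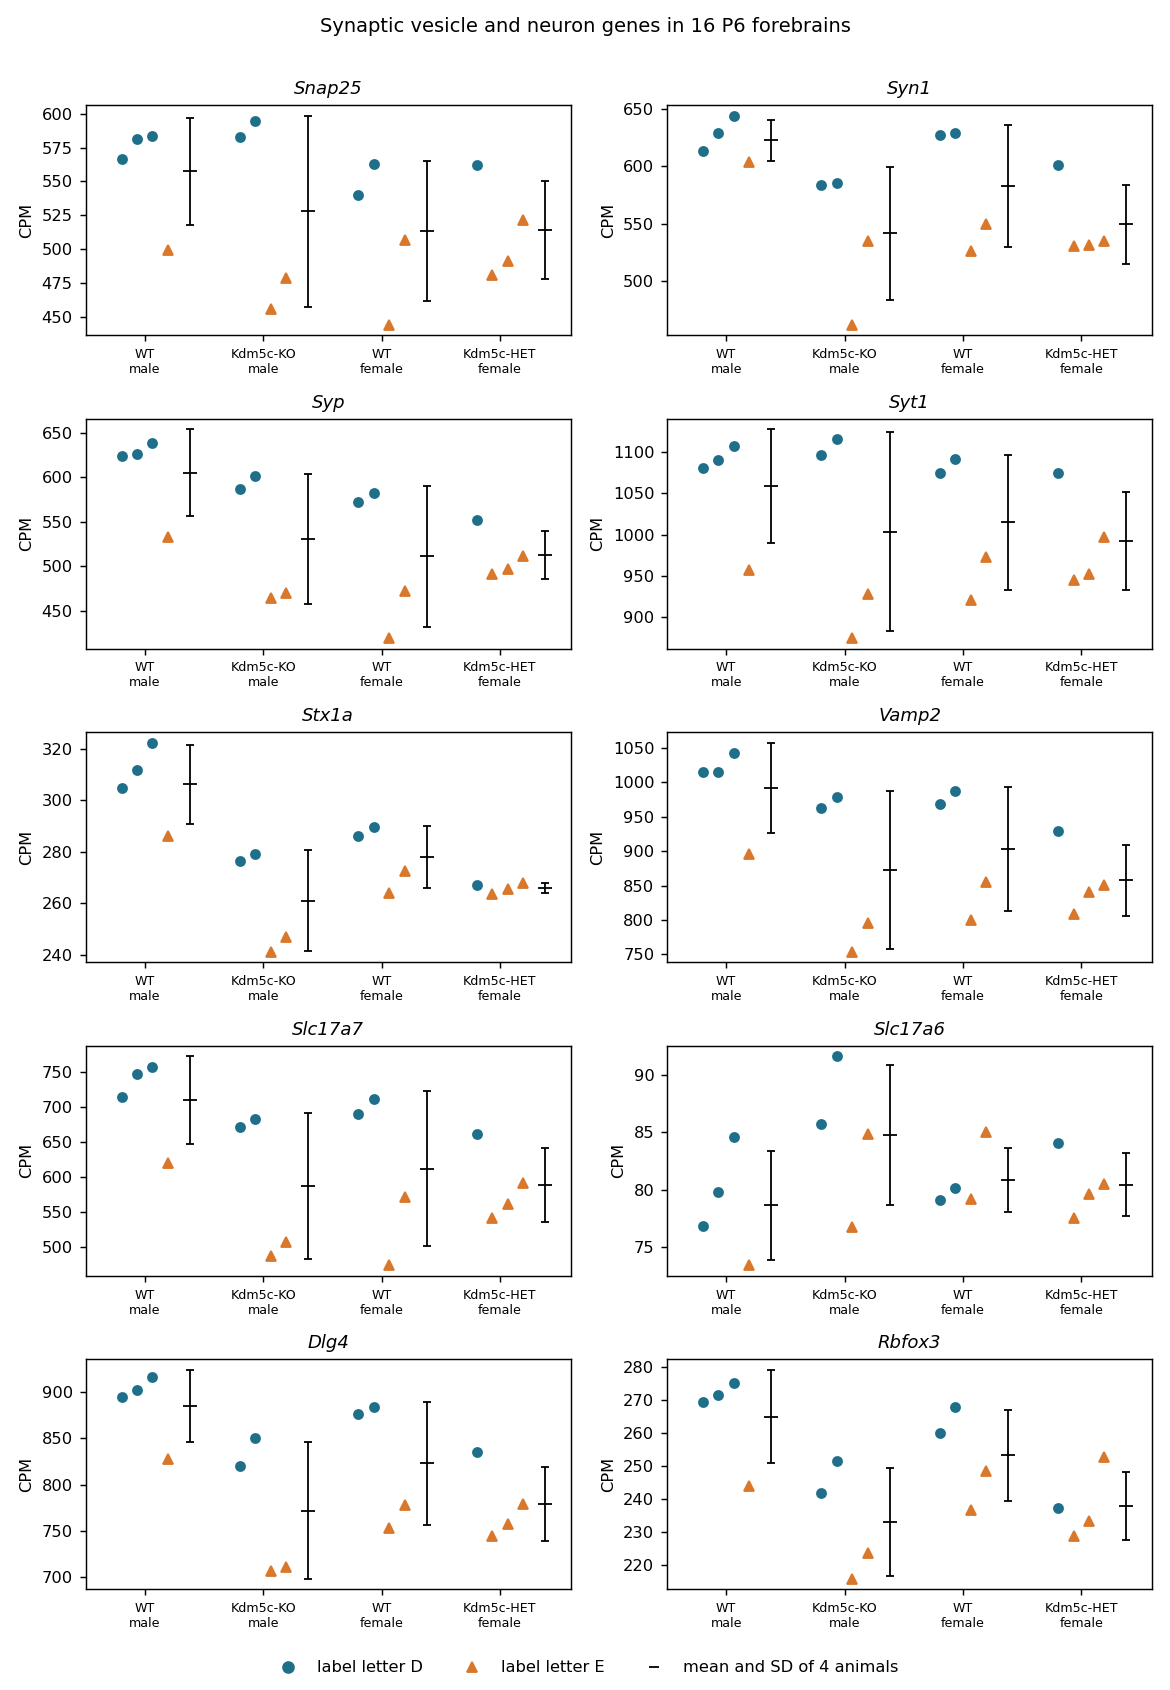
CPM (vertical axis, 1 panel per gene, axes not starting at 0) of the 10 genes in each of the 16 animals, by group (horizontal axis); circles are letter D, triangles are letter E, and the bar beside each group is the mean with the SD of 4 animals. Letter E animals sit low in most panels, the 4 *Kdm5c*-KO males are below the 4 WT males in *Stx1a* and *Syn1*, and *Slc17a6* does not share the pattern.

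In females the groups overlapped in every one of the 10 genes. No gene was called in *Kdm5c*-HET females by edgeR or by DESeq2, and none had p under 0.05 in edgeR before adjustment, while 0.509% of all genes tested were called. The median Log2FC was -0.06, and 8 of the 10 values were negative, against 50.4% of all genes tested. *Stx1a* measured 289.5, 286, 273, and 264 CPM in WT females 1D, 3D, 4E, and 5E, and 267, 268, 266, and 264 CPM in *Kdm5c*-HET females 9D, 6E, 8E, and 9E. The heterozygotes 9D, 6E, and 8E lay at the low end of the WT range and 9E lay just below it, and the Log2FC was -0.06 (95% interval -0.17 to 0.04, q = 0.953).

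*Rbfox3* measured 268, 259.8, 248, and 237 CPM in WT females 1D, 3D, 4E, and 5E, and 237, 233, 229, and 253 CPM in *Kdm5c*-HET females 9D, 6E, 8E, and 9E. Here 3 heterozygotes lay near or below the lowest WT female, and 9E lay within the WT range. The Log2FC was -0.09, the lowest of the 10 in females (95% interval -0.20 to 0.02, q = 0.908). *Slc17a7* ran from 474 to 712 CPM in WT females and from 541 to 662 CPM in *Kdm5c*-HET females, with a Log2FC of -0.06 (95% interval -0.30 to 0.19, q = 0.993). For *Snap25*, *Syp*, and *Slc17a6* the Log2FC was 0.00154, 0.00328, and -0.00732. Over the 10 genes the 95% intervals reached down to -0.30 and up to 0.21. In 8 of the 10 the female interval contained the male Log2FC, and in *Stx1a* and *Slc17a6* it did not.

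The difference between the male and the female response was tested directly as the sex by genotype interaction. None of the 10 genes was called, while 0.0392% of all genes tested were. *Stx1a* was the 1 gene of the 10 with p under 0.05, with a male minus female difference in Log2FC of -0.17 and q = 0.759. A larger response in 1 sex was therefore not shown for any of the 10 genes. In WT animals, 9 of the 10 genes had a lower value in females than in males and none was called, while 5.0% of all genes tested were. That share depended on single animals. Of all genes tested, 894 of 17866 were called with all animals. Without WT female 5E 69 of 18207 were called, and without WT male 5D 73 of 18178. The X-linked *Syp* had the lowest Log2FC of the 10 genes, -0.24 (q = 0.187). It measured 605 ± 48.7 CPM (SD, n = 4) in WT males and 511 ± 79.1 CPM (SD, n = 4) in WT females. *Stx1a* had a Log2FC of -0.14 and q = 0.137, and the X-linked *Syn1* had -0.09 and q = 0.496.

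The letter in the sample label gave the most calls among the 10 genes. With 1 mean per group and the letter as a term, 9 of the 10 genes were called lower in letter E than in letter D, and *Slc17a6* was not. Of all genes tested, 23.6% were called in this comparison in either direction and 12% were called lower. Among the 3108 genes with a mean of at least 81.2 CPM, the lowest mean among the 10, these shares were 47.7% and 29.3%. The median Log2FC of the 10 was -0.20, and that of all genes tested was 0.00880. The same 9 genes were called in a fit of only the 8 males, and 7 of the 10 in a fit of only the 8 females, where *Stx1a* (q = 0.24) and *Rbfox3* (q = 0.317) were not. All of these calls were lower in letter E. Of all genes tested, 6.91% were called lower in the males and 8.18% in the females, and 11.3% and 14.1% were called in either direction. In these fits of 1 sex, the shares among genes with a mean of at least 81.2 CPM were not computed.

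*Slc17a7* had the largest letter difference in Log2FC. It ran from 662 to 758 CPM with a median of 701 CPM in the 8 letter D animals, and from 474 to 621 CPM with a median of 551 CPM in the 8 letter E animals. No letter E animal reached a letter D animal, and the Log2FC was -0.35 (standard error 0.0378, q = 1.37e-06). *Syp* ran from 551 to 638 CPM (median 594) in letter D and from 419 to 533 CPM (median 482) in letter E, with a Log2FC of -0.29 (q = 1.34e-06). *Snap25*, *Vamp2*, and *Syt1* were also separated without overlap, with Log2FC of -0.24, -0.24, and -0.22. Such a complete separation, each letter E animal below each letter D animal, was found in these 5 of the 10 genes and in 2.01% of all genes tested.

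The other genes overlapped between letters. *Dlg4* and *Syn1* each had a Log2FC of -0.18, with *Dlg4* at 819.9 to 916 CPM in letter D and at 707 to 828 CPM in letter E. *Stx1a* and *Rbfox3*, the genes called in *Kdm5c*-KO males, had the smallest of the called letter differences, at -0.11 (q = 0.00279) and -0.12 (q = 0.00625). *Slc17a6* ran from 76.8 to 91.7 CPM in letter D and from 73.4 to 85.0 CPM in letter E, and its Log2FC of -0.07 was not called (q = 0.172).

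**Figure D2:**
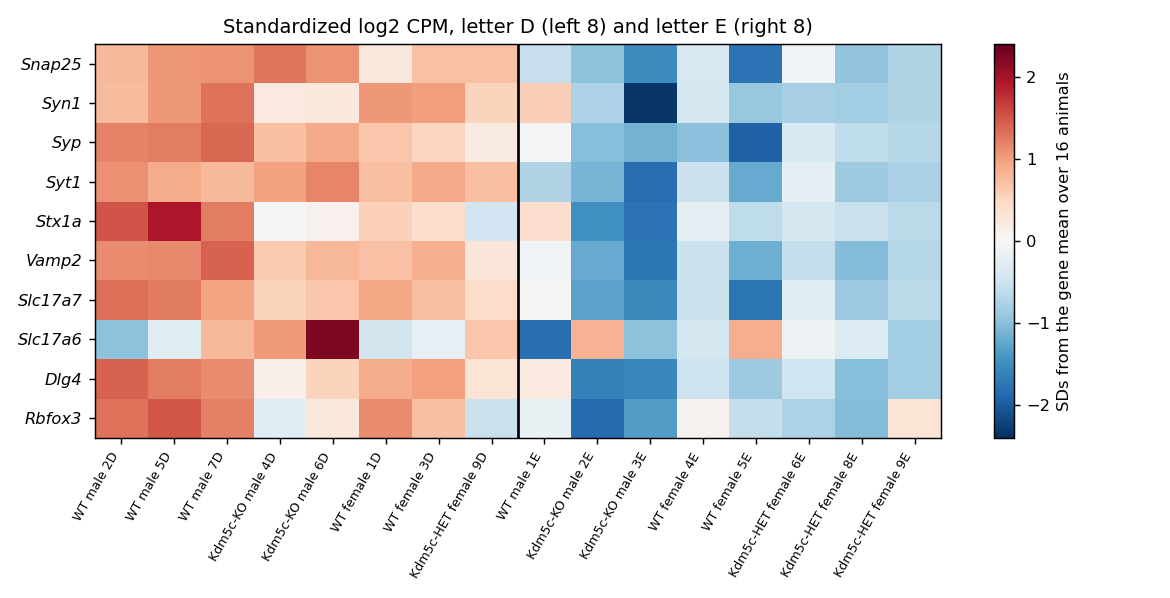
Log2 CPM of each of the 10 genes (rows), given as SDs from that gene's mean over 16 animals (colour), in the 16 animals (columns), the 8 of letter D left of the line and the 8 of letter E right of it. Red cells fill most of the left side and blue cells most of the right side in 9 rows, and the *Slc17a6* row does not follow them.

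Because letter E is held by 2 *Kdm5c*-KO males and by 1 WT male, the male comparison was also made within letters and with the letter as a covariate. Within letter D, 2 knockouts against 3 WT males, 7 of the 10 differences in mean log2 CPM were negative, with a median of -0.09. *Stx1a* differed by -0.17, *Rbfox3* by -0.14, and *Slc17a7* by -0.13 there, each without overlap. *Syn1*, *Dlg4*, *Syp*, and *Vamp2* were also lower without overlap, by smaller amounts, and *Slc17a6* was higher without overlap. *Snap25* differed by 0.03 and *Syt1* by 0.02, both with overlap. The share of all genes tested that separate in this way within letter D was not computed. Within letter E, 2 knockouts against WT male 1E alone, 9 of the 10 were negative, with a median of -0.20. *Slc17a6* was higher in the knockouts within both letters, by 0.14 in each.

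With the letter as a covariate, the standard errors were smaller in all 10 genes, and 7 of the 10 genes were called lower in *Kdm5c*-KO males, while 3.42% of all genes tested were called lower. These were *Stx1a* (Log2FC -0.20, q = 0.000406), *Slc17a7* (-0.20, q = 0.0216), *Syn1* (-0.16, q = 0.0182), *Rbfox3* (-0.16, q = 0.0151), *Dlg4* (-0.16, q = 0.00264), *Vamp2* (-0.13, q = 0.0268), and *Syp* (-0.12, q = 0.0853). *Snap25* and *Syt1* were at -0.03 each and were not called. The share called lower in this fit was not computed among genes with a mean of at least 81.2 CPM. The median Log2FC of the 10 genes moved from -0.19 to -0.14, so more calls came with smaller differences. Without WT male 1E, the only WT male of letter E, the calls dropped to 3, *Stx1a*, *Dlg4*, and *Rbfox3*, and without any other animal 6 or 7 were called lower. Neither *Snap25* nor *Syt1* was called in any of these fits. *Slc17a6*, at 0.13 in the fit of all 16 animals (q = 0.137), was called higher in 3 of the 16, those without WT female 5E, WT male 7D, or *Kdm5c*-KO male 3E.

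In females the letter covariate moved the median Log2FC to -0.000129 with 5 of the 10 values negative, and no gene was called, while 0.879% of all genes tested were. *Syp* alone had an unadjusted p under 0.05, with a Log2FC of 0.09 and q = 0.573. In the interaction with the letter covariate, 6 of the 10 genes had p under 0.05, against 10% of all genes tested, with *Stx1a* at -0.17 (q = 0.200) and *Syp* at -0.21 (q = 0.203). None of the 10 was called, while 0.134% of all genes tested were. Between WT females and WT males, the letter covariate gave 2 calls, *Syp* (Log2FC -0.18, q = 0.0163) and *Stx1a* (-0.11, q = 0.0512), while 9.40% of all genes tested were called.

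**Figure D3:**
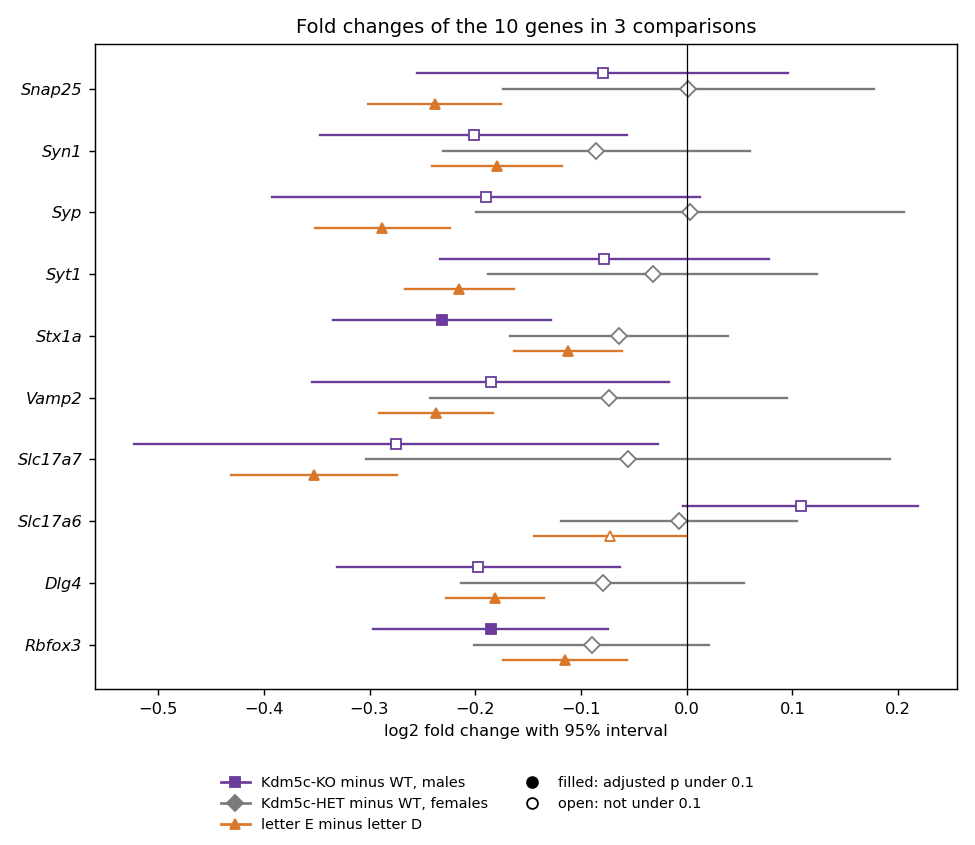
Log2FC (horizontal axis) with its 95% interval for the 10 genes (rows) in 3 comparisons: squares are *Kdm5c*-KO minus WT males, diamonds are *Kdm5c*-HET minus WT females, and triangles are letter E minus letter D; filled symbols have q under 0.1. In males *Stx1a* and *Rbfox3* are filled, in females no gene is, and between letters every gene but *Slc17a6* is.

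The transcripts of VGLUT1 and VGLUT2 were compared within each animal as the ratio of the *Slc17a7* to the *Slc17a6* count, which needs no library size. The ratio was 9.87, 9.38, 8.45, and 8.46 in WT males 2D, 5D, 7D, and 1E, and 7.83, 7.46, 5.97, and 6.35 in *Kdm5c*-KO males 4D, 6D, 2E, and 3E. No knockout male reached a WT male, and WT male 1E was level with 7D. The mean was 9.04 ± 0.704 (SD, n = 4) in WT and 6.91 ± 0.884 (SD, n = 4) in *Kdm5c*-KO males. On the log2 scale the difference was -0.39 (exact two-sided permutation test, p = 0.0286, the smallest p that 4 against 4 allow, and 0.0571 after Benjamini-Hochberg adjustment over the tests in both sexes). The difference was -0.27 within letter D and -0.46 within letter E.

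In females the ratio was 9.0, 8.61, 7.22, and 5.57 in WT females 1D, 3D, 4E, and 5E, and 7.87, 7.34, 6.80, and 7.24 in *Kdm5c*-HET females 9D, 6E, 8E, and 9E. The heterozygotes lay within the WT range, and the difference was -0.03 on the log2 scale (exact permutation test, p = 0.886). Its sign turned with the letter, from -0.16 within letter D to 0.17 within letter E. Between letters, the ratio ran from 7.46 to 9.87 with a median of 8.53 in the 8 letter D animals and from 5.57 to 8.46 with a median of 7.01 in the 8 letter E animals, a difference of -0.28 on the log2 scale within groups (exact permutation of the letters within groups, p = 0.00521 over 576 relabellings). The difference between the male and the female response was not tested for this ratio.

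**Figure D4:**
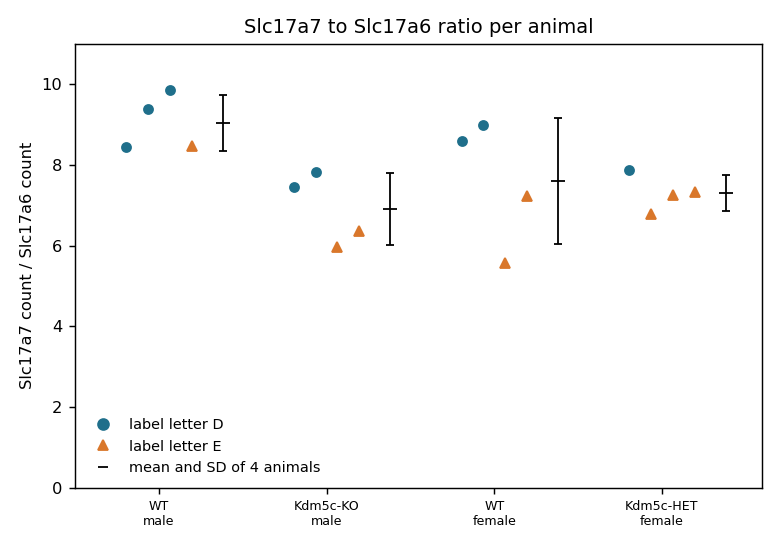
Ratio of the *Slc17a7* to the *Slc17a6* count (vertical axis, starting at 0) in each animal by group (horizontal axis); circles are letter D, triangles are letter E, and the bar is the mean with the SD of 4 animals. The 4 WT males sit between 8.45 and 9.87 and the 4 *Kdm5c*-KO males between 5.97 and 7.83, while the female groups overlap.

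The 10 genes moved together from animal to animal, with 1 exception. Over the 45 pairs of genes, Pearson's r of log2 CPM across the 16 animals had a median of 0.858, and 36 pairs were above 0.5. *Vamp2* followed the rest most closely, with r = 0.995 against the mean of the other 9 genes, followed by *Slc17a7* (0.964) and *Syt1* (0.954). *Slc17a6* had r = 0.11 against the mean of the others, and its 2 negative correlations were with *Rbfox3* and *Stx1a*. After the group means were removed, the median was 0.888 and no pair was negative. *Slc17a6* then had positive correlations with all the others, from 0.300 with *Rbfox3*, the lowest of all pairs, to 0.556 with *Syt1*. These correlations describe 16 libraries that share the groups and the letters, and they are not tests.

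Of 1006 other tested genes with a symbol, the 5 whose log2 CPM was most like the mean of the 10 genes over the 16 animals were *Calm3* (r = 0.963), *Chgb* (0.957), *Sult4a1* (0.956), *Clstn1* (0.952), and *Nrgn* (0.950). *Calm3* encodes a calmodulin, *Chgb* a granin of dense-core vesicles, *Clstn1* a calsyntenin, and *Nrgn* neurogranin, a postsynaptic calmodulin-binding protein. All 5 were called lower in letter E, with Log2FC from -0.27 in *Nrgn* to -0.15 in *Clstn1*, and *Calm3* (q = 0.0746) and *Nrgn* (q = 0.0701) were called lower in *Kdm5c*-KO males. They were picked for following a mean that itself differs between letters, so these directions come with the choice and are a description. The symbols come from a table of genes that the study called on these samples, so this choice is narrow. Of all 17856 other genes tested, 250 had r above 0.9.

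Other genes of the synapse could be followed only where that table pairs them. Of 24 further genes of the release machinery 2 were paired, and both were called lower in *Kdm5c*-KO males, *Unc13a* (Log2FC -0.18, q = 0.016), a priming factor, and *Cplx2* (-0.18, q = 0.0878), a complexin that binds the SNARE complex. Of 18 genes of the vesicle membrane and its recycling 1 was paired, *Syn3*, a relative of *Syn1*, which rose (0.24, q = 0.0204). Of 6 further transmitter transporters 2 were paired, *Slc17a8* (VGLUT3), which fell (-0.49, q = 0.0138), and *Slc18a3*, the vesicular acetylcholine transporter, which rose (2.68, q = 5.97e-06). The count of *Slc18a3* was 27 to 44 in the 4 WT males and 165 to 328 in the 4 knockouts, and RefSeq places it across *Chat*. Among genes of the postsynaptic density, *Baiap2* (-0.16, q = 0.0662) and *Nrgn* (-0.33, q = 0.0701) fell and *Shank1* (-0.11, q = 0.165) was not called. Since the study called these genes on these samples, the counts are not independent evidence of a direction. RefSeq also places other genes across *Unc13a*, *Cplx2*, *Syn3*, *Baiap2*, and *Shank1*. None of 20 further markers of mature neurons was paired.

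Among forebrain markers, *Emx1*, a transcription factor of the cortex, fell in *Kdm5c*-KO males (Log2FC -0.23, q = 0.0948). *Emx1* was present in every animal at 27.4 to 41.0 CPM, and no marker of other brain regions was paired. Markers of other cell types moved with the 10 genes in some libraries. The 1 of 6 astrocyte markers that was paired, *Aqp4*, measured 149 to 167 CPM in WT males and 120.3 to 145 CPM in *Kdm5c*-KO males (Log2FC -0.24, q = 0.115), and it was lower in letter E (-0.20, q = 0.000214). With the letter as a covariate, *Aqp4* was called lower in *Kdm5c*-KO males (-0.19, q = 0.0154).

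Of 6 choroid plexus markers 2 were paired, *Ttr* and *Aqp1*, and their summed level was 1.48 to 205 CPM in WT males, 1.98 to 2.82 CPM in *Kdm5c*-KO males, 4.00 to 195 CPM in WT females, and 3.30 to 86.6 CPM in *Kdm5c*-HET females. By letter, the medians were 95.1 CPM in D and 4.27 CPM in E. Both were called lower in *Kdm5c*-KO males, *Ttr* with a Log2FC of -5.76 (q = 0.0643) and *Aqp1* with -2.0 (q = 0.0642), although the WT male with the lowest sum lay below every knockout. Of 5 blood markers 4 hemoglobin genes were paired, with a summed level of 118 to 146 CPM in WT males, 66.1 to 107 CPM in *Kdm5c*-KO males, 90.8 to 104 CPM in WT females, and 96.1 to 103 CPM in *Kdm5c*-HET females. Of these, *Hba-a1* (Log2FC -0.59, q = 0.00131), *Hba-a2* (-0.67, q = 0.00904), and *Hbb-bs* (-0.47, q = 0.0557) were called lower in *Kdm5c*-KO males and *Hbb-bt* (-0.57, q = 0.112) was not. With the letter as a covariate, both choroid plexus markers and all 4 hemoglobin genes were called lower there. The symbols of these markers come from the same table of genes that the study called. None of these paired markers was at 0 in any animal. Their part in the differences of the 10 genes was not tested. Markers of inhibitory neurons, progenitors, microglia, endothelium, and meninges were not paired and were not analysed here.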

How the data were processed

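Bulk mRNA-seq of 16 P6 forebrains was analysed. The authors made poly(A)-enriched directional libraries, mapped reads to mm10 and counted them per gene (submitters' processing notes name STAR 2.5.3a, featureCounts, Subread 1.5.0, and deepTools 3.1.3), and deposited raw read counts for 54219 Ensembl genes, without normalization. The analysis used edgeR 4.0.16 in R 4.3.3: filterByExpr, TMM, glmQLFit with 1 mean per group for the 16 animals, glmQLFTest, and Benjamini-Hochberg adjustment over all 17866 genes tested, with a threshold of q under 0.1. The comparison of letters added the letter as a term. Standard errors and 95% intervals come from the same fit. Log2 CPM used a prior count of 2. The ratio of *Slc17a7* to *Slc17a6* counts was tested by exact permutation of its log2 values. The tests were first tested on simulated data. The lowest count of any of the 10 genes in an animal was 1590. Within-group pairs of animals differed by more than sampling noise (24 pairs, chi-square per gene 2.78 to 13.9). Each animal was treated as 1 replicate. That check cannot show that animals sharing a litter or a letter are independent, and nothing in the labels ties animals to litters.

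The genes named are the 10 genes, at most 3 called genes of each fixed list, and the 5 genes most like the 10. *Shank1*, *Aqp4*, and the hemoglobin genes stand outside that rule and were named after their values were seen. Genes and lists were chosen with earlier results of these data known. Symbols of other genes came from a table of 1019 genes called by the study; 19 of 168 list genes matched, and some of these are not reported here. Positions came from RefSeq on GRCm38.p6 by symbol. Alternatives were DESeq2 1.42.0, edgeR with DESeq2's size factors, every gene with a count, a minimum of 10 counts in each animal, only 8 animals, the letter as a covariate, q under 0.05, 0.5 added to each count of the ratio, and leaving out each animal in turn. DESeq2 with the letter, a letter term for the ratio, and the permutation of letters were added after seeing the data.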

Additional observations from a re-analysis of the deposited data

Results flagged for a closer look

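A check for single animals far from the rest of their group was run on the CPM of the 10 genes and on the *Slc17a7* to *Slc17a6* ratio in each group, 44 checks in all, of which chance marks about 1 in 20. It marked 2. *Syn1* measured 601 CPM in *Kdm5c*-HET female 9D, against 530.4 to 536 CPM in the other 3 heterozygotes, and 9D is the only one of letter D. *Syp* measured 533 CPM in WT male 1E, against 624 to 638 CPM in the other 3 WT males, and 1E is the only one of letter E. The part of the letter in these values was not tested.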

How the results depend on the processing

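The 2 calls in *Kdm5c*-KO males (*Stx1a*, *Rbfox3*) were also made with DESeq2's size factors and at 10 or more counts per animal, and DESeq2 called 3 genes (1079 of all 18687 tested). The count was 7 without the filter on low counts (1279 of 35337 genes called), 7 with the letter as a covariate (1468 of 17866), 7 with DESeq2 and the letter (1484 of 18682, added after seeing the data), 1 in the fit of 8 males (641 of 17010), and 1 at q under 0.05 (583 of 17866). Leaving out each animal gave 1 to 4: 1 without WT male 2D, 5D, or 7D or *Kdm5c*-KO male 2E or 3E, and 4 without *Kdm5c*-KO male 4D or 6D. The cause was not tested. The Log2FC of the 10 genes in males kept its sign in all these alternatives, but its size moved. With each animal left out, *Snap25* ran from -0.14 to -0.0146, *Syt1* from -0.13 to -0.0166, and *Vamp2* from -0.24 to -0.12. *Syn1* ran from -0.24 to -0.13, *Slc17a7* from -0.35 to -0.19, and *Slc17a6* from 0.0687 to 0.15. Within letter D, the differences of *Snap25* and *Syt1* were positive, as given above. In *Kdm5c*-HET females and in the interaction the count was 0 throughout. Between WT females and WT males it was 1 with DESeq2 (1517 of all 11366 genes tested called), 2 without the filter (1298 of 35337), 2 with the letter (1679 of 17866), 3 with DESeq2 and the letter (2003 of 12030), and 0 to 1 with each animal left out (1 without WT male 1E). Between letters it was 7 in the 8 females alone, 10 without WT female 5E, and 9 otherwise.

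The log2 difference of the *Slc17a7* to *Slc17a6* ratio in males ran from -0.46 to -0.33 with each animal left out, and it was -0.32 with a letter term. In the exact permutation test, leaving out a *Kdm5c*-KO male gave p = 0.0286 and leaving out a WT male gave p = 0.0571. No knockout male reached a WT male in any of these sets. In females the log2 difference ran from -0.17 to 0.0570, was 0.17 within letter E, and was 0.0378 with a letter term.

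Small female Log2FC values changed sign. *Snap25* was -0.00125 with DESeq2, -0.0015 with its size factors, and -0.000624 without the filter. With the letter as a covariate, *Syt1* was 0.0237, *Slc17a7* 0.0451, and *Slc17a6* 0.0103, and with DESeq2 and the letter they were 0.0207, 0.0425, and 0.00755. With each animal left out, *Snap25* ran from -0.0649 to 0.0455, *Syp* from -0.0840 to 0.0689, *Syt1* from -0.0792 to 0.00183, *Slc17a7* from -0.16 to 0.0229, and *Slc17a6* from -0.0310 to 0.0140, and *Syt1* in the interaction ran from -0.0969 to 0.0155. Digits of the animal codes recur between groups with another letter (1D is a WT female and 1E a WT male), and the letter is found in all 4 groups and was fitted as the covariate. No paired analysis was possible because no whole code recurs and the sources do not tie equal digits together. With 4 animals a group, and 1 WT male of letter E, letter and genotype are only partly separable in males.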
